A study of Mus musculus with 9 samples.

Results

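The question was what still set mouse bladder apart from control on day 10 after an intravesical hydrogen peroxide (H2O2) infusion when the TGF-β inhibitor SB431542 had been given. The 3 H2O2/SB431542 libraries were compared with the 3 control libraries, which are 6 of the 9 libraries of the study. The other 3, H2O2/saline, entered the same fit and are given beside the results. All samples were from wild-type female C57BL/6N mice with no genetic change, 8 weeks old at the infusion, and all were taken on day 10. Treated mice received 1.5% H2O2 in the bladder on day 0 and, by intraperitoneal injection on days 0 and 4, either 1.2 mM SB431542 in a volume of 100 µl or saline. Controls are untreated in the labels, sham in the study's text, and in its methods given saline in the bladder in place of H2O2, so it is not settled whether they share the catheter and the infusion. The comparison holds the H2O2 injury and the drug together, and these cannot be told apart. Each library is poly-A RNA of a piece of whole bladder, with urothelium, lamina propria and muscle mixed, so fewer cells of a type and less RNA per cell cannot be told apart. The labels do not state that the libraries of a group are separate mice, and the spread between them may be in part technical.

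SB431542 blocks the kinase of the TGF-β type I receptor and of the closely related activin and nodal receptors, and so the phosphorylation of Smad2 and Smad3. The bladder is lined by the urothelium, in which basal cells with keratins 5 and 15 lie beneath intermediate cells and a surface of umbrella cells that carry the uroplakin plaques of the urine barrier. After injury basal cells divide and cover the defect, and they can switch on keratins of squamous epithelium. Interferon-induced genes are antiviral effectors and sensors that are switched on by a transcription factor complex holding Stat2 and Irf9, bound to a short element near their promoters.

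The 9 libraries held 37329025 to 41055151 counts each. Levels are CPM, counts put on a common library total and scaled by the TMM factor of each library, and 3 counts correspond to 0.0686 to 0.0867 CPM. Bladder markers were present in all 6 libraries. The summed level of 5 urothelial markers was 14540.0 to 22523 CPM in control and 12219 to 15649 CPM in H2O2/SB431542, that of 5 smooth muscle markers 17647 to 40005 CPM in control and 20389 to 21345 CPM in H2O2/SB431542, and that of 5 fibroblast markers 1584 to 2879 CPM in control and 2760.3 to 4181 CPM in H2O2/SB431542. Replicate 1 of each of the 3 groups carried more red cell and fat genes than the others: Hba-a1, an adult globin, read 794, 319.8 and 232 CPM in control 1 to 3 and 730.4, 250.5 and 202 CPM in H2O2/SB431542 1 to 3, and the fat cell hormone gene Adipoq 14.3, 0.634 and 0 CPM in control and 3.19, 0 and 0.137 CPM in H2O2/SB431542. H2O2/SB431542 1 lay nearer to control 1 than to its own group, with a Spearman correlation across genes of 0.980 against 0.968 and 0.973, and it was near control for several injury genes described here. For these the value of each library is given, and for the lists most affected the median without it. The part of blood, fat and replicate 1 in the differences was not tested.

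Of 19314 genes tested, 3 passed an adjusted p of 0.05 (edgeR quasi-likelihood test, Benjamini-Hochberg), or 0.0155%: Atg9b and Aarsd1 were higher (0.0104%) and Galnt2 lower (0.00518%). DESeq2 on the same counts called 183 genes, 133 higher and 50 lower, and an unadjusted p under 0.05 was reached by 1469 genes (7.61%; 4.36% higher and 3.24% lower). H2O2/saline against control gave 10 genes past the same threshold in the edgeR fit (0.0518%). Because so few genes passed, groups are also described by genes that stood apart, meaning that all 3 H2O2/SB431542 libraries lay on one side of all 3 control libraries with a fold change of at least 2. This was so of 627 genes above control (3.25% of those tested) and 317 below (1.64%), or 4.89% in all, a description with no test. The fold change was positive in 50.2% of tested genes. These percentages are the background for every count of list members. Members near 0 in control passed the count filter only through injured libraries, so counts that hold them lean to genes above control. Examples are Mx1, Sprr2g, Eda2r and Bdkrb1 of the interferon, squamous, p53 and sensory lists. The background passed the same filter. Among genes with at least 10 counts in every library, 1.88% stood apart above control and 0.906% below. The median log2 fold change of all tested genes was 0.0018, beside which the medians of lists can be read. Without H2O2/SB431542 1 the counts were 1012 and 775 genes above and below, with 2 libraries set against 3.

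The gene groups furthest above control were basal urothelial genes, neutrophil markers and interferon-induced genes. Their median log2 fold changes were 1.59, 1.33 and 1.16. For the neutrophil markers this was carried by H2O2/SB431542 2: the libraries stood at -0.031, 1.30 and 0.12 above the control mean, of which the first and the third lay within the range of the controls. Without H2O2/SB431542 2 the median was 0.34, and without H2O2/SB431542 1 it was 1.74. Only 9 of the 14 neutrophil markers listed passed the count filter. Members near 0 in control, such as S100a8 and S100a9, passed it only through injured libraries, so this median leans to genes high there. Mmp9, another member, was lower than control, at a log2 fold change of -0.80. Padi4, described further on, is a member too and the only one that DESeq2 called. Fat cell markers, smooth muscle contractile genes and ribosomal protein genes had the lowest medians, at -0.70, -0.54 and -0.50. The first of these turned to 0.82 without control 1 and was -1.49 without H2O2/SB431542 1, the libraries that held most of the fat genes. In the medians over members, 17 cholesterol synthesis genes at -0.083 and 16 circadian clock genes at -0.065 were near that of all genes.

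**Figure D1:**
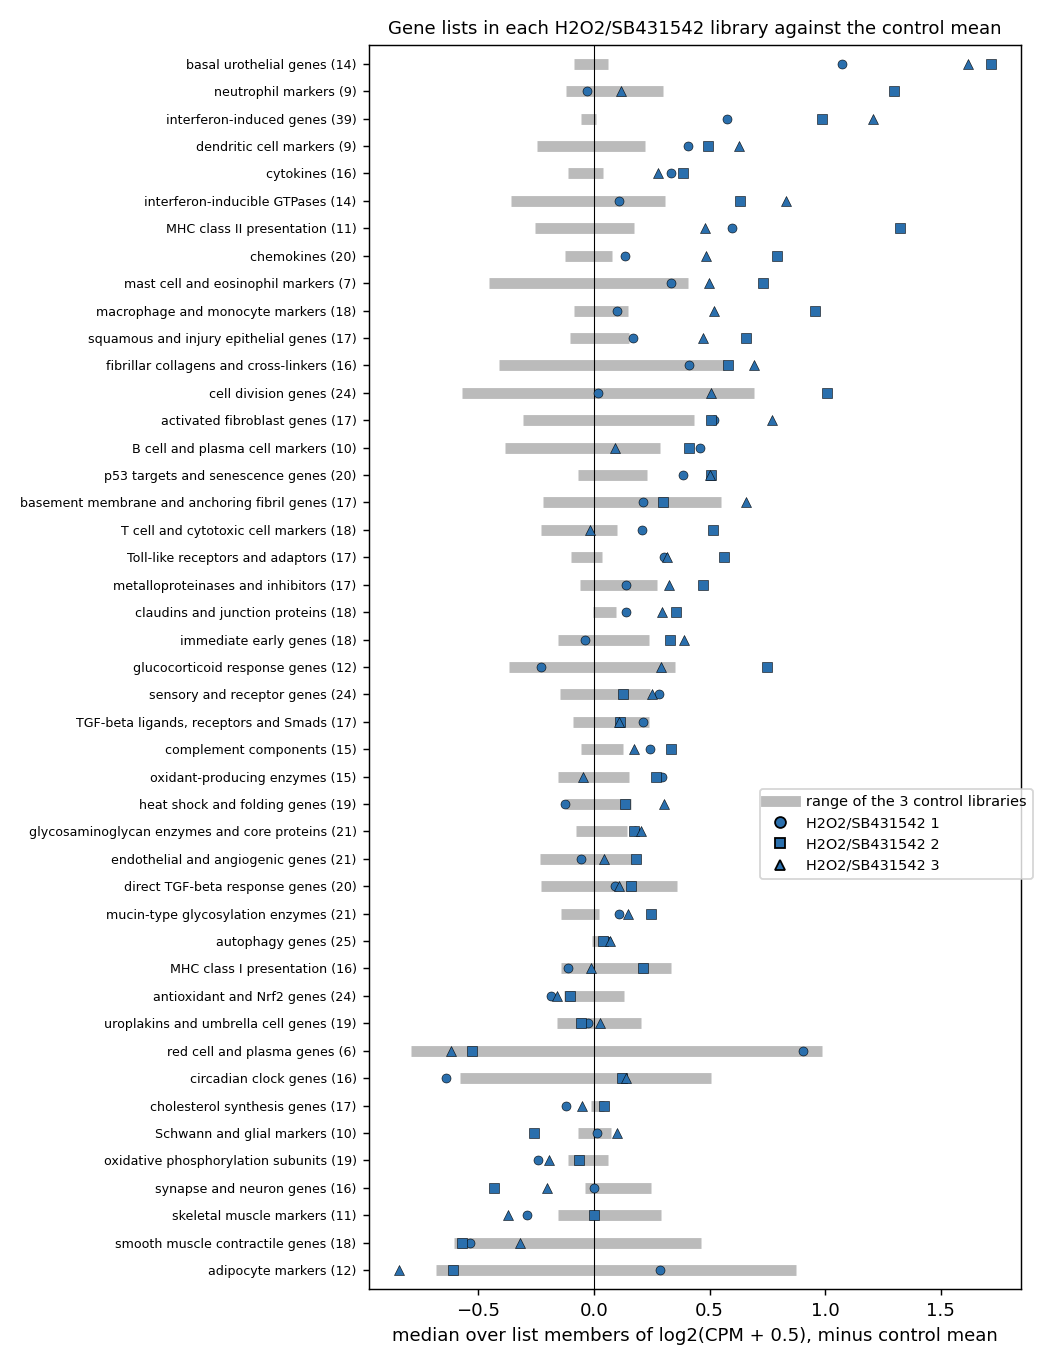
Each row is a gene list with the number of members tested in parentheses, and the x axis is the median over members of log2(CPM + 0.5) minus the control mean. Blue symbols are the 3 H2O2/SB431542 libraries and grey bars span the 3 control libraries. Basal urothelial genes sit at 1.07, 1.72 and 1.62 and interferon-induced genes at 0.58, 0.99 and 1.21, to the right of the control bars in every library.

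Atg9b, a lipid scramblase of the ATG9 family that supplies membrane to forming autophagosomes, was the gene with the lowest p. It stood at 1.35, 1.95 and 1.70 CPM in the control libraries and 20.8, 10.7 and 14.9 CPM in the H2O2/SB431542 libraries, and all treated libraries lay above all controls. The rise was 3.21 ± 0.30 (SE) on the log2 scale with an edgeR adjusted p of 0.00431. H2O2/saline libraries stood between, at 8.498, 8.69 and 9.09 CPM, with a log2 fold change of 2.39 against the same controls. The other members of the list of 25 autophagy genes did not pass, and the list median was 0.018. Atg9b overlaps Nos3, the endothelial nitric oxide synthase, on the opposite strand, and 7.45% of its exon bases in a GENCODE annotation of the earlier build GRCm38 are shared with it. Nos3 read 9.60, 11.1 and 8.43 CPM in control and 12.6, 11.7 and 8.80 CPM in H2O2/SB431542, with overlapping groups. Whether the counting told strands apart is not stated. The 2 genes together read 10.9, 13.0 and 10.1 CPM in control and 33.4, 22.4 and 23.7 CPM in H2O2/SB431542, which is a log2 fold change of 1.22 ± 0.27 (SE) with an edgeR adjusted p of 0.343. All treated libraries lay above control in the sum as well, but the call was lost. It was also lost without control 3, at an edgeR adjusted p of 0.0650.

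Aarsd1, which encodes an editing protein that clears wrongly charged alanyl-tRNA, stood at 3.41, 1.35 and 1.70 CPM in the control libraries and 19.7, 19.4 and 16.9 CPM in the H2O2/SB431542 libraries. It rose by 3.12 ± 0.34 (SE) on the log2 scale (edgeR adjusted p = 0.00864), and H2O2/saline stood at a like height with 26.7, 21.0 and 17.9 CPM. A second gene model, Gm27029, shares 41% of the exon bases of Aarsd1 on the same strand, and it lay the other way. Gm27029 was at 66.2, 51.5 and 47.5 CPM in the control libraries and 31.5, 29.7 and 26.4 CPM in the H2O2/SB431542 libraries, with 41.1, 32.8 and 27.5 CPM in H2O2/saline (log2 fold change -0.91 ± 0.21 SE, edgeR adjusted p = 0.334). Added together the pair read 69.6, 52.9 and 49.2 CPM in control and 51.3, 49.1 and 43.4 CPM in H2O2/SB431542. The groups then overlapped, and the log2 fold change turned to -0.26 ± 0.20 (SE) with an edgeR adjusted p of 0.899. The call on Aarsd1 itself was lost without control 2, control 3 or H2O2/SB431542 2, at edgeR adjusted p of 0.0658, 0.123 and 0.0630.

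Galnt2, an enzyme that starts mucin-type O-glycosylation in the Golgi, was the only gene called lower. It stood at 101, 106 and 87.3 CPM in the control libraries and 29.9, 23.7 and 35.3 CPM in the H2O2/SB431542 libraries, and it fell by 1.73 ± 0.21 (SE) on the log2 scale (edgeR adjusted p = 0.0179). H2O2/saline was at 27.8, 33.1 and 23.1 CPM. Here too a gene model on the same strand lay the other way. Gm20388 shares 90.0% of the exon bases of Galnt2 and stood at 122, 129 and 108 CPM in the control libraries and 264, 194 and 212 CPM in the H2O2/SB431542 libraries, with 223, 187 and 200.2 CPM in H2O2/saline (log2 fold change 0.90 ± 0.18 SE, edgeR adjusted p = 0.280). Their sum was 223, 235 and 195 CPM in control and 294, 217 and 247 CPM in H2O2/SB431542, with a log2 fold change of 0.22 ± 0.18 (SE) and an edgeR adjusted p of 0.903. Leaving out any 1 of the 6 libraries lost the call on Galnt2 itself, with edgeR adjusted p from 0.0506 to 0.139. At both loci, then, one gene model was high where the other was low in all 6 injured libraries, and the summed counts of control and H2O2/SB431542 overlapped. Of 19280 tested genes matched to the annotation, 1025 shared exon bases with a tested gene on the same strand, and 12 of these lay on opposite sides of control without overlap of the libraries. Among the 944 genes that stood apart from control, 6 had such a partner.

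**Figure D2:**
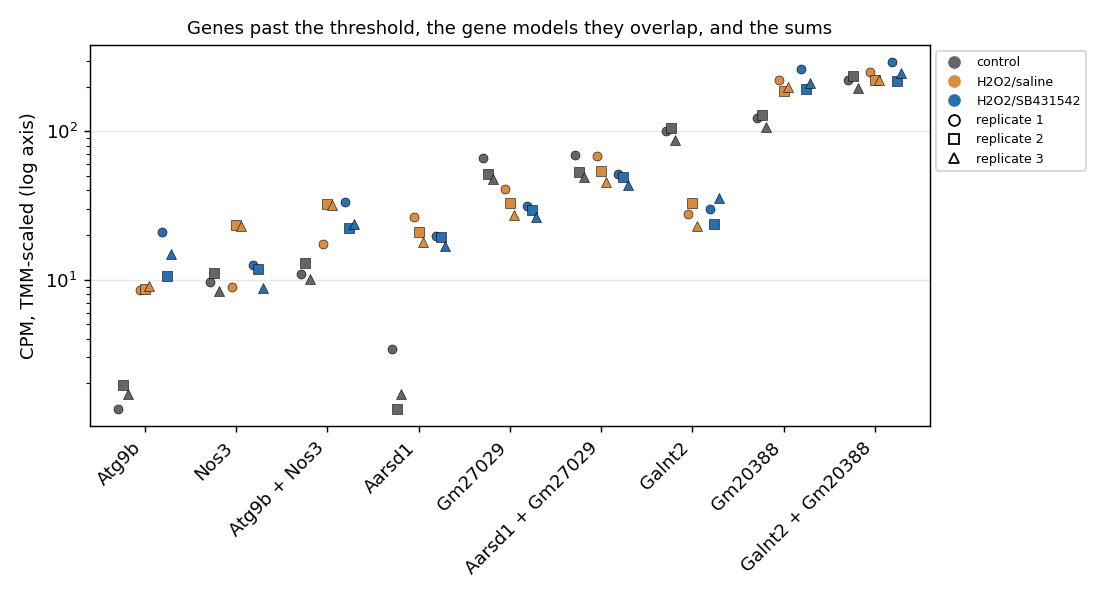
The y axis is CPM scaled by TMM on a log axis, for each gene past the threshold, the gene model it overlaps, and their sum; each symbol is a library, coloured by group. Aarsd1 stands far above control while Gm27029 lies below it, Galnt2 and Gm20388 do the reverse, and the sums of both pairs overlap between control and H2O2/SB431542. Atg9b with Nos3 lies at 33.4, 22.4 and 23.7 CPM in H2O2/SB431542 against 10.9, 13.0 and 10.1 CPM in control.

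Interferon-induced genes stood above control in most members. Of 39 tested, 17 stood apart above control and 0 below, against 3.25% of all genes above. Mx1, 1 of the 17, had a mean of 0.026 CPM in control and 1.79 CPM in H2O2/SB431542, and passed the count filter only through injured libraries. Of the same members, 36 had a positive fold change and 24 an unadjusted p under 0.05 above control. None passed the edgeR threshold, and DESeq2 called 14 of them higher. The median log2 fold change was 1.16, and it was 0.82 to 1.38 when any 1 library was left out.

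Oas1a, which makes the 2-5A messenger that activates RNase L, read 1.85, 2.69 and 1.34 CPM in the control libraries and 9.15, 18.9 and 15.1 CPM in the H2O2/SB431542 libraries, with 10.6, 25.9 and 22.4 CPM in H2O2/saline (log2 fold change 2.87 ± 0.41 SE, edgeR adjusted p = 0.0647). Irf7, the transcription factor that amplifies type I interferon production, read 7.83, 9.51 and 6.14 CPM in the control libraries and 25.6, 45.6 and 51.1 CPM in the H2O2/SB431542 libraries (log2 fold change 2.38 ± 0.35 SE, edgeR adjusted p = 0.0647). Both lay well clear of control in each library and missed the threshold. Irf9, the DNA-binding partner of Stat2, was at 15.1, 13.8 and 13.6 CPM in the control libraries and 28.6, 34.9 and 31.4 CPM in the H2O2/SB431542 libraries (log2 fold change 1.16 ± 0.26 SE, edgeR adjusted p = 0.326). Stat2 read 13.1, 16.8 and 13.1 against 23.2, 28.8 and 34.9 CPM without overlap. Oas3, another synthase of the family, read 0.106, 0.740 and 0.155 against 1.76, 2.40 and 5.76 CPM. Oasl1, an Oas-like protein, read 1.90, 2.17 and 1.16 against 4.64, 13.0 and 21.1 CPM. Oas1a and Oas1g are near-identical copies, and how reads were split between them is uncertain.

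Isg15, a ubiquitin-like modifier, stood at 1.75, 2.40 and 2.06 CPM in the control libraries and 3.31, 8.23 and 11.6 CPM in the H2O2/SB431542 libraries (log2 fold change 1.90 ± 0.47 SE, edgeR adjusted p = 0.353). Usp18, which removes Isg15 from proteins and damps interferon signalling, read 17.1, 13.2 and 15.7 against 25.1, 25.7 and 32.2 CPM. Its fold was under 2. Ifit3, which binds foreign RNA with its Ifit partners, was at 1.08, 2.61 and 2.32 against 2.85, 7.80 and 14.2 CPM. Rsad2, the antiviral enzyme viperin, was at 1.11, 0.687 and 1.13 against 1.26, 2.20 and 11.9 CPM, a wide spread with 1 high library. The RNA sensors Ifih1 and Ddx58 overlapped with control. Ifih1 read 2.57, 4.89 and 8.87 against 4.64, 6.53 and 6.42 CPM. Ddx58 read 5.74, 10.49 and 9.82 against 8.02, 12.7 and 15.2 CPM. Parp14 and Herc6 had log2 fold changes of -0.051 and -0.049.

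Within the H2O2/SB431542 group the interferon-induced list stood at 0.58, 0.99 and 1.21 above the control mean in libraries 1 to 3. Library 1, near control for squamous injury genes, was the lowest, yet still lay outside the control libraries, which were at -0.055, 0.005 and 0.0086. H2O2/saline libraries stood at 0.55, 1.22 and 1.24, and their median log2 fold change was 1.23. Both comparisons share the control libraries.

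**Figure D3:**
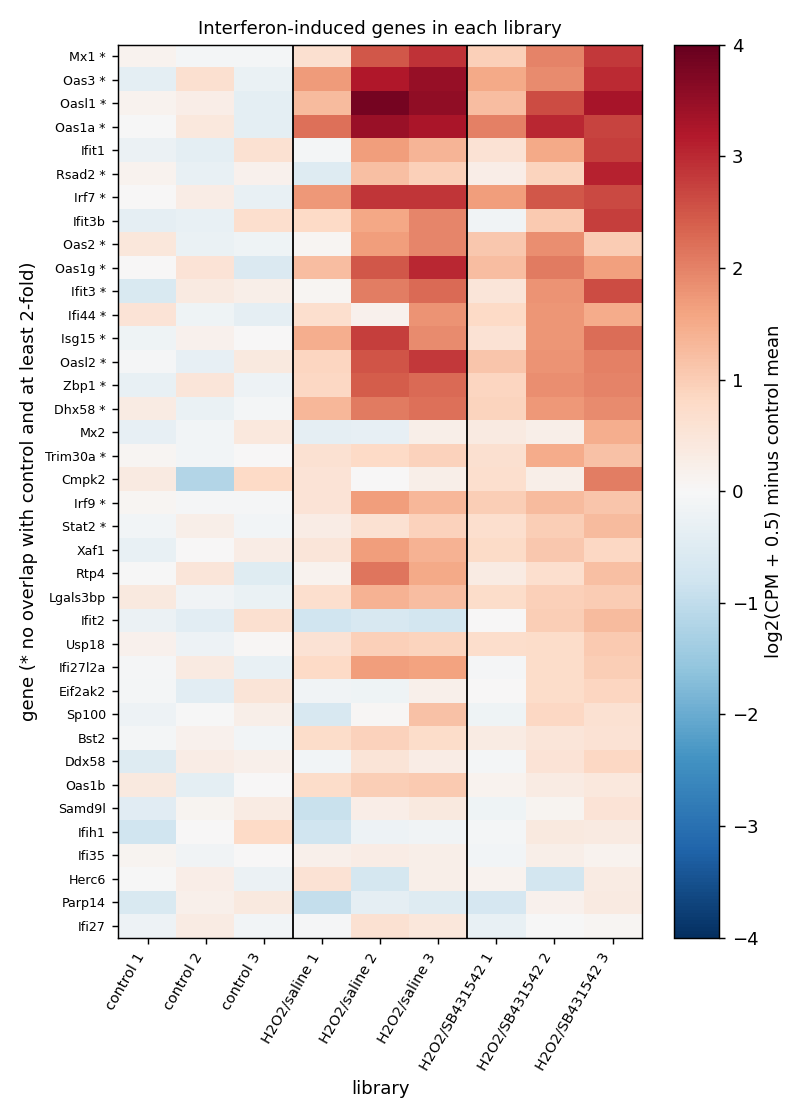
Rows are interferon-induced genes tested and columns the 9 libraries; colour gives log2(CPM + 0.5) minus the control mean, and an asterisk marks the 17 genes whose H2O2/SB431542 libraries do not overlap control and are at least 2-fold higher. Red extends over H2O2/SB431542 2 and 3 for nearly all upper rows and is paler in H2O2/SB431542 1.

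The promoters of these genes were read for the interferon-stimulated response element in its short form, GAAA followed by any 2 bases and GAAA again, read on both strands (TTTC, any 2 bases and TTTC on the other), in the 250 bases before the start site (RefSeq, GRCm38.p6). Of 27 members with a promoter entry, 11 held it (40.7%), against 420 of 12679 tested genes (3.31%). Among the members that stood apart above control it was 8 of 13 (61.5%), and among the other members 3 of 14 (21.4%). Across all genes that stood apart the share was 9.04% for those above control (35 of 387) and 2.70% for those below (5 of 185). The match is a description of the letters, and Irf7 and Oasl1 had none in this window.

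Promoters of 4 genes with the element that stood apart are printed to show the element in place. Its nearest match to the start lies 14 bases before it in Oas1a, 66 in Isg15, 122 in Ifit3 and 120 in Rsad2. They run 5′ to 3′ on the strand of the gene and end at the base before the start, and capitals mark the element, with overlapping matches run together. Positions are Oas1a at chr5:120907526-120907775, minus strand, Isg15 at chr4:156200819-156201068, minus strand, Ifit3 at chr19:34583279-34583528, plus strand, and Rsad2 at chr12:26456453-26456702, minus strand, all in GRCm38.p6.
Oas1a: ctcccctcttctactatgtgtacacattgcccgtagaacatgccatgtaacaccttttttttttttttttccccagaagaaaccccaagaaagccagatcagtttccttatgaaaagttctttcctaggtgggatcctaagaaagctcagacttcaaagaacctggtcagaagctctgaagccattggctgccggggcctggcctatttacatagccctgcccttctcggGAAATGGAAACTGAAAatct
Isg15: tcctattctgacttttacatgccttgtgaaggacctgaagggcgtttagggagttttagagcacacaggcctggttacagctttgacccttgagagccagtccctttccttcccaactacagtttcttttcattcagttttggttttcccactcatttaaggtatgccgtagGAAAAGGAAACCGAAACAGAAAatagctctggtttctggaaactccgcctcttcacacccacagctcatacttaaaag
Ifit3: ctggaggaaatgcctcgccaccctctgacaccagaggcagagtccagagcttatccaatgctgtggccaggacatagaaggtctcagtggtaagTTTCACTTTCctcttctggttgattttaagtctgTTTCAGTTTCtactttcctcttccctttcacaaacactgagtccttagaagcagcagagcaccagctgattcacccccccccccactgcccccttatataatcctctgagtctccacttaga
Rsad2: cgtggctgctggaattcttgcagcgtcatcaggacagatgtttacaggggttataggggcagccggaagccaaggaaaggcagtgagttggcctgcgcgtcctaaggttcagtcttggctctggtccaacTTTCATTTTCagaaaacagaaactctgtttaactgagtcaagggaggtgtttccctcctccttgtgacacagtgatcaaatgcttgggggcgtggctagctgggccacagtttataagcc

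The interferon-inducible GTPases, which attack pathogen vacuoles in response to interferon-γ, are a separate list. Of 14 tested, 4 stood apart above control, the median log2 fold change was 0.83 (leave-one-out range 0.55 to 0.98), and the median of H2O2/saline against control was -0.044. Over the control mean this list stood at 0.11, 0.63 and 0.83 in H2O2/SB431542 1 to 3. The first lay within the controls at -0.36, 0.041 and 0.31. H2O2/saline libraries stood at -0.42, 0.21 and 0.35. Irgm2 read 3.07, 4.86 and 5.31 against 6.30, 10.8 and 11.7 CPM, with 3.01, 7.32 and 6.64 CPM in H2O2/saline. Gbp4 was one of 39 genes above both other groups: it read 0.767, 0.792 and 1.52 CPM in control, 0.867, 0.673 and 0.817 CPM in H2O2/saline and 1.69, 1.80 and 2.93 CPM in H2O2/SB431542. edgeR and DESeq2 called no member of this list, and 3 had an unadjusted p under 0.05 above control. The direct difference between the inhibitor and saline groups had an edgeR adjusted p of 0.528 for Gbp4.

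Genes of antigen presentation by MHC class II stood above control in most members. Of 11 genes tested, 4 stood apart and 10 had a positive fold change, with a median of 0.83. It was 1.03 without H2O2/SB431542 1 and 0.47 without H2O2/SB431542 2. edgeR called none, DESeq2 called 3 higher, and 8 had an unadjusted p under 0.05 above control. Ciita, the master regulator of the class II genes, read 1.96, 1.61 and 0.851 CPM in the control libraries and 4.83, 4.93 and 4.71 CPM in the H2O2/SB431542 libraries (log2 fold change 1.71 ± 0.39 SE, edgeR adjusted p = 0.341). The class II chain H2-Ab1 was at 93.2, 80.7 and 46.5 CPM in the control libraries and 135, 206 and 139 CPM in the H2O2/SB431542 libraries (log2 fold change 1.12 ± 0.27 SE, edgeR adjusted p = 0.348). The invariant chain Cd74 was at 192, 171 and 109 against 291, 403 and 287 CPM. MHC class I genes had a median of 0.015, and 0 of 16 stood apart; edgeR and DESeq2 called none, and 1 had an unadjusted p under 0.05 above control and 0 below.

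Lists of immune cell markers had positive medians. Macrophage and monocyte markers had a median log2 fold change of 0.69, with 16 of 18 positive and 2 apart; edgeR and DESeq2 called none, and 6 had an unadjusted p under 0.05 above control. On the log2 scale over the control mean the list stood at 0.10, 0.96 and 0.52 in H2O2/SB431542 1, 2 and 3, of which the first lay within the controls at -0.087, 0.15 and -0.044. The median was 0.83 without H2O2/SB431542 1 and 0.33 without H2O2/SB431542 2. Csf1r, the receptor that keeps macrophages alive, read 52.4, 55.9 and 53.6 CPM in the control libraries and 75.2, 95.7 and 90.8 CPM in the H2O2/SB431542 libraries (log2 fold change 0.69 ± 0.21 SE, edgeR adjusted p = 0.393). Fcgr1, the high-affinity IgG receptor, read 1.85, 1.53 and 0.980 against 3.21, 5.10 and 3.27 CPM. The resident macrophage markers Folr2, Cd163 and Mrc1 had log2 fold changes of -0.42, -0.42 and 0.078. T cell markers had a median of 0.35 and B cell markers of 0.48, but the first was 0.049 without H2O2/SB431542 2 and 0.60 without H2O2/SB431542 3, and the second 0.23 without control 3 and 0.88 without control 1. The summed defining T cell markers were low (0.740 to 1.48 CPM in control and 1.19 to 2.10 CPM in H2O2/SB431542). The neutrophil markers S100a8, S100a9 and Ly6g summed to 0 to 0.317 CPM in control and 0.0242 to 3.40 CPM in H2O2/SB431542, and Ly6g was at 0 in all 3 control libraries.

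Ccr7, the receptor that guides dendritic cells to lymph nodes, read 0.793, 0.211 and 0.258 CPM in the control libraries and 2.37, 9.30 and 8.19 CPM in the H2O2/SB431542 libraries (log2 fold change 3.97 ± 0.73 SE, edgeR adjusted p = 0.194). Dendritic cell markers as a list had 4 of 9 apart above control and 1 below. Among 20 chemokines 6 stood apart above control, with a median of 0.82 (leave-one-out range 0.51 to 1.01) beside 1.46 for H2O2/saline. Ccl8, a monocyte attractant, was at 2.46, 3.20 and 2.94 CPM in the control libraries and 7.03, 26.3 and 24.7 CPM in the H2O2/SB431542 libraries (log2 fold change 2.75 ± 0.64 SE, edgeR adjusted p = 0.344). Ccl22 and Ccl17 are ligands of Ccr4 made by dendritic cells. Ccl22 read 0.873, 2.11 and 0.464 against 2.46, 8.10 and 11 CPM. Ccl17 read 2.86, 0.951 and 1.19 against 3.60, 3.98 and 5.42 CPM. Both were above control in each library. The interferon-induced chemokine Cxcl10 read 0.0529, 0.291 and 0.412 against 0.797, 1.45 and 7.75 CPM. Cxcl14, made constitutively by epithelium, was lower in each library, at 147, 183 and 131 against 118, 88.7 and 86.8 CPM, with a fold under 2.

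Il33, an alarmin of barrier epithelium, stood at 2.04, 2.56 and 2.47 CPM in the control libraries and 5.68, 30.5 and 23.5 CPM in the H2O2/SB431542 libraries (log2 fold change 3.07 ± 0.89 SE, edgeR adjusted p = 0.370). Il1rn, the antagonist of the interleukin-1 receptor, stood at 4.94, 2.91 and 2.94 against 6.74, 22.2 and 22.9 CPM. In both, library 1 was closest to control and still above it. Il1b, the main secreted interleukin-1, had no count in any control library and 0, 0.5001 and 0.320 CPM in H2O2/SB431542 1 to 3, beside 0.0578, 1.60 and 2.33 CPM in H2O2/saline. A value of 0 allows up to 0.0793 CPM in control 1 at 3 counts, for counting error only. Tnf, at 0.0793, 0 and 0.206 CPM in control and 0.483, 0.10 and 0 CPM in H2O2/SB431542, was at or under such limits in 3 of the 6 libraries. The cytokine list median of 1.10 dropped to 0.39 without H2O2/SB431542 1. Among 17 Toll-like receptor genes 16 had a positive fold change, with a median of 0.34 (leave-one-out range 0.31 to 0.56), and Tlr1, Tlr6, Tlr7 and Tlr9 stood apart above control at levels up to 5.30 CPM.

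Basal urothelial genes had the highest median of all lists, 1.59, with 9 of 14 apart above control, 0 below and 13 positive. edgeR called none, DESeq2 called 6 higher, and 11 had an unadjusted p under 0.05 above control. The list holds Krt4 and Krt13 beside the genes of basal cells. Krt15, a keratin of basal progenitor cells, read 1573, 1131 and 1131 CPM in the control libraries and 2705, 4233 and 3906 CPM in the H2O2/SB431542 libraries (log2 fold change 1.5 ± 0.26 SE, edgeR adjusted p = 0.194). Krt5, the keratin that defines basal cells, read 2463, 1394 and 979 CPM in the control libraries and 4281, 3350.2 and 2650.4 CPM in the H2O2/SB431542 libraries (log2 fold change 1.09 ± 0.31 SE, edgeR adjusted p = 0.370). Krt15, Krt5 and Krt4 were also among the 5 genes with the largest difference in mean CPM above control. Krt4, a keratin of non-cornified stratified epithelium, was at 475, 531 and 364 CPM in the control libraries and 1097, 1576 and 2106 CPM in the H2O2/SB431542 libraries (log2 fold change 1.80 ± 0.32 SE, edgeR adjusted p = 0.194). In these 3 genes H2O2/SB431542 1 was above all controls too. Krt19 and Krt7, simple epithelial keratins and the other 2 of these 5, overlapped with control, at log2 fold changes of 0.83 and 0.41.

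Of 17 basement membrane and anchoring fibril genes, 1 stood apart above control and 14 had a positive fold change, with a median of 0.40 (leave-one-out range 0.23 to 0.58). edgeR and DESeq2 called none, and 4 had an unadjusted p under 0.05 above control. The member that stood apart was Col7a1. On the log2 scale over the control mean the list stood at 0.21, 0.30 and 0.66 in H2O2/SB431542 1 to 3. The first and the second lay within the controls at -0.18, 0.55 and -0.22. Col17a1, Itga6 and Ngfr, described next, are not members of this list. Col17a1 counts among the basal urothelial genes. DESeq2 called Col17a1 and Ngfr higher, at DESeq2 adjusted p of 0.00192 and 0.00347. Col17a1, the collagen that ties basal cells to the basement membrane, read 11.3, 21.0 and 15.9 CPM in the control libraries and 65.2, 167 and 149.6 CPM in the H2O2/SB431542 libraries (log2 fold change 2.99 ± 0.54 SE, edgeR adjusted p = 0.194). Itga6, the α chain of the hemidesmosome integrin, was at 22.9, 24.3 and 34.6 against 36.0, 87.5 and 72.4 CPM. Its partner Itgb4 was at 225, 236 and 101 against 525, 263 and 312 CPM. Col7a1, the collagen of the anchoring fibrils, read 1.32, 1.08 and 1.44 CPM in the control libraries and 2.46, 21.4 and 24.1 CPM in the H2O2/SB431542 libraries, with 2.37, 81.0 and 65.6 CPM in H2O2/saline. H2O2/SB431542 1 therefore lay near control and the other libraries far above (log2 fold change 3.64 ± 1.04 SE, edgeR adjusted p = 0.370). Ngfr, the low-affinity neurotrophin receptor carried by basal cells, was at 2.41, 1.80 and 1.75 against 4.81, 7.20 and 6.996 CPM. Trp63, the transcription factor of basal cells, and Shh, the signal they send to the stroma, overlapped with control. Trp63 read 41.4, 44.2 and 70.2 against 47.6, 60.9 and 49.5 CPM. Shh read 141, 113 and 107 against 154, 113 and 103 CPM. Their log2 fold changes were 0.02 and 0.037.

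Keratins and envelope proteins of squamous injury epithelium split the H2O2/SB431542 group. Krt13, a keratin of stratified mucosa, read 0.635, 0.475 and 0.258 CPM in the control libraries and 1.93, 29.96 and 21.1 CPM in the H2O2/SB431542 libraries and 2.57, 359.8 and 288 CPM in H2O2/saline (log2 fold change 5.27 ± 1.44 SE, edgeR adjusted p = 0.368). Krt6a, a keratin of wounded epidermis, read 1.08, 0.291 and 0.464 CPM in the control libraries and 1.30, 70.2 and 23.6 CPM in the H2O2/SB431542 libraries, with 1.16, 576 and 416 CPM in H2O2/saline (log2 fold change 5.69 ± 1.73 SE, edgeR adjusted p = 0.400). In both, replicate 1 of either injured group lay nearest to control, and replicates 2 and 3 were many times higher. Krt14, which counts with Krt13 among the basal urothelial genes, read 5.55, 25.7 and 25.0 against 32.4, 428 and 323 CPM. The cornified envelope gene Sprr2f read 0.529, 0 and 0.412 against 2.78, 45.8 and 29.8 CPM. In these too library 1 was the lowest of its group by far. The envelope genes Sprr1a and Sprr2a1 had log2 fold changes of 0.11 and 0.07. Of 17 squamous genes 5 stood apart above control, edgeR called none, DESeq2 called 1, and 7 had an unadjusted p under 0.05 above control. The list median was 0.65, beside 0.50 without H2O2/SB431542 1, and the basal list went from 1.59 to 1.76.

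**Figure D4:**
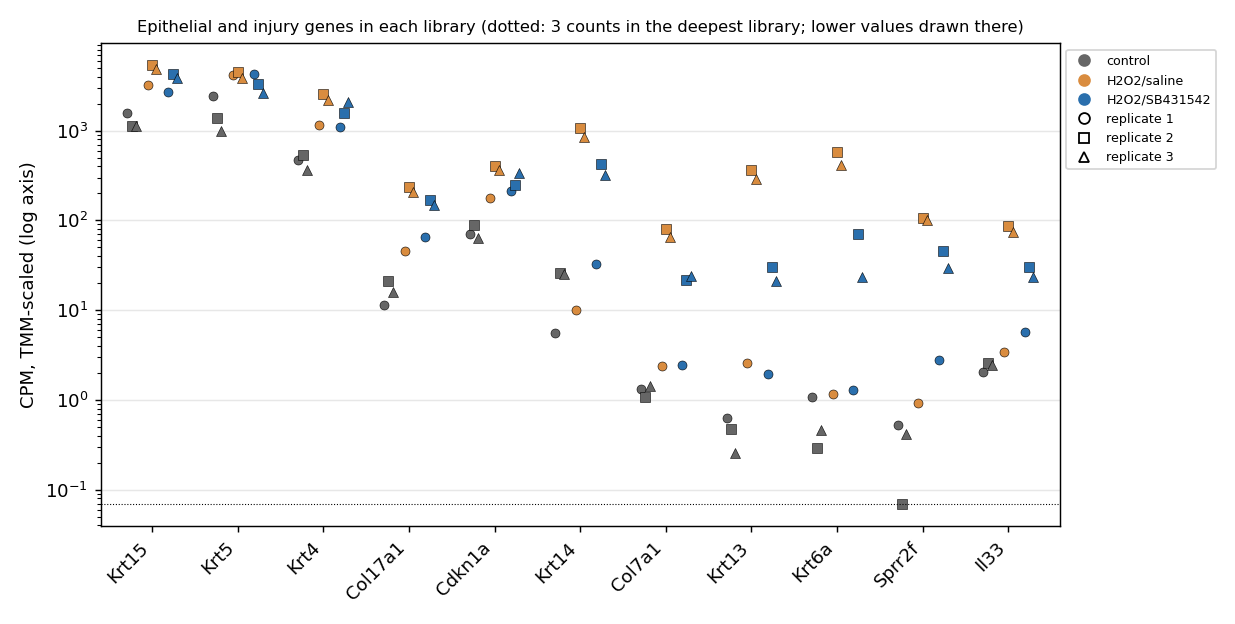
The y axis is CPM scaled by TMM on a log axis for epithelial and injury genes, with a symbol for each library coloured by group; the dotted line is 3 counts in the deepest library, and lower values are drawn on it. Krt15, Krt5, Krt4, Col17a1 and Cdkn1a are above control in all 3 H2O2/SB431542 libraries, whereas for Krt13 and Krt6a the circle of H2O2/SB431542 1, at 1.93 and 1.30 CPM, stays beside the controls.

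Uroplakins of the umbrella cell plaques were below control in part. Upk3a read 5397, 4192 and 4536 CPM in the control libraries and 2759, 3357 and 2886 CPM in the H2O2/SB431542 libraries (log2 fold change -0.65 ± 0.33 SE, edgeR adjusted p = 0.706). Upk1a read 10971, 6430.1 and 6862 CPM in the control libraries and 6059.7, 4726 and 4463 CPM in the H2O2/SB431542 libraries (log2 fold change -0.67 ± 0.36 SE, edgeR adjusted p = 0.736). All treated libraries were below all controls in each of the pair, with folds under 2. Upk2 read 2412, 1617 and 1782 against 1272, 1089.7 and 1142 CPM, again without overlap. Upk1b read 1279.8, 907 and 1255 against 1277, 1089.5 and 1077 CPM, with overlap. Luminal keratins Krt8 and Krt18 had log2 fold changes of 0.27 and -0.10. None of the 19 umbrella cell genes stood apart by 2-fold, and edgeR and DESeq2 called none of them, with 3 at an unadjusted p under 0.05 above control and 1 below.

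Cldn8, a sealing claudin of tight junctions, was the only claudin or junction gene of 18 to stand apart below control, at 32.3, 30.3 and 59.7 CPM in the control libraries and 19.8, 17.5 and 15.7 CPM in the H2O2/SB431542 libraries (log2 fold change -1.21 ± 0.42 SE, edgeR adjusted p = 0.463). H2O2/saline was lower still, with 16.8, 5.90 and 5.05 CPM. Cldn8 went against its list, in which 16 of 18 had a positive fold change and 0 stood apart above control. The median of that list was 0.27 (leave-one-out range 0.20 to 0.32). Hyal1, a hyaluronidase, read 11.9, 11.2 and 10.3 CPM in the control libraries and 18.1, 19.6 and 20.1 CPM in the H2O2/SB431542 libraries (log2 fold change 0.79 ± 0.19 SE, edgeR adjusted p = 0.344), without overlap and under 2-fold. It shares 50.8% of its exon bases with its neighbour Nat6 on the same strand. Together they read 59.97, 56.02 and 45.1 CPM in control and 61.6, 56.8 and 57.3 CPM in H2O2/SB431542, and these overlapped. Xylt2, which starts glycosaminoglycan chains, read 35.9, 36.0 and 33.1 against 38.2, 37.5 and 32.8 CPM. Has3, a hyaluronan synthase, stood at 3.91, 6.26 and 5.59 CPM in the control libraries and 13.9, 25.0 and 19.5 CPM in the H2O2/SB431542 libraries (log2 fold change 1.89 ± 0.47 SE, edgeR adjusted p = 0.353). Of the Galnt family, Galnt6 and Galnt14 stood apart above control. Galnt6 read 149.9, 88.7 and 99.6 against 248, 234 and 201 CPM. Galnt14 read 0.688, 0.475 and 0.412 against 1.79, 2.05 and 2.29 CPM. DESeq2 called both, and the median over 21 O-glycosylation genes was 0.024.

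Among p53 targets and senescence genes, 18 of 20 had a positive fold change and 3 stood apart above control, with a median of 0.41. edgeR called none, DESeq2 called 3, and 8 had an unadjusted p under 0.05 above control. Cdkn1a, the p21 inhibitor of cyclin-dependent kinases, read 70.5, 89.5 and 63.3 CPM in the control libraries and 213, 246 and 333 CPM in the H2O2/SB431542 libraries, with 179, 408 and 360.2 CPM in H2O2/saline (log2 fold change 1.83 ± 0.30 SE, edgeR adjusted p = 0.136). Eda2r, a p53-induced receptor of the TNF family, read 0.0529, 0.317 and 0.155 CPM in the control libraries and 1.59, 3.98 and 3.54 CPM in the H2O2/SB431542 libraries (log2 fold change 4.09 ± 0.69 SE, edgeR adjusted p = 0.156). Both were above control in every library, H2O2/SB431542 1 included. Sesn2, a stress-induced brake on mTORC1, was at 48.7, 52.2 and 41.4 against 87.7, 74.7 and 92.5 CPM. Ccng1 read 29.1, 43.8 and 38.3 against 50.9, 52.5 and 70.0 CPM, with 28.2, 27.5 and 39.4 CPM in H2O2/saline. Trp53 itself, at a log2 fold change of -0.024, and Mdm2, at 0.36, did not stand apart. Trib3 and Chac1, targets of the amino acid stress factor Atf4, stood apart above control but belong to another list, of heat shock and folding genes. They were the 2 of its 19 members that stood apart. That list had a median of 0.15, with 12 positive. Trib3 read 2.80, 6.02 and 3.71 against 8.69, 28.9 and 31.4 CPM. Chac1 read 4.28, 2.91 and 2.84 against 7.61, 8.502 and 12.8 CPM.

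Cell division genes had a median of 0.58, and of 2.0 in H2O2/saline against the same controls. Replicate 1 of both injured groups lay within the controls on the log2 scale over the control mean, at 0.017 in H2O2/SB431542 and -0.052 in H2O2/saline, with controls at -0.57, 0.69 and -0.083. The median of H2O2/SB431542 was 0.23 without its library 2, 0.85 without its library 1, 0.30 and 0.38 without control 1 and 3, and 1.25 without control 2. Of 24 tested, 23 were positive, and Mcm5 and Mcm3, subunits of the replicative helicase, stood apart. edgeR and DESeq2 called none, and 3 had an unadjusted p under 0.05 above control. Mcm5 read 15.9, 18.4 and 11.5 CPM in the control libraries and 31.0, 67.7 and 33.4 CPM in the H2O2/SB431542 libraries, with 23.01, 106 and 89.5 CPM in H2O2/saline (log2 fold change 1.53 ± 0.48 SE, edgeR adjusted p = 0.408). The proliferation marker Mki67 read 0.344, 7.18 and 0.902 against 2.004, 6.40 and 6.10 CPM, and control 2 was above all treated libraries. The direct difference between the injured groups had an edgeR adjusted p of 0.680 for Mcm5 and 0.762 for Mki67.

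Genes that TGF-β, activin and BMP signals switch directly gave no common direction. Over 20 genes the median log2 fold change was 0.055, with a leave-one-out range of -0.17 to 0.36. A positive fold change was seen in 10, and 3 had an unadjusted p under 0.05 above control and 2 below. edgeR called none, and DESeq2 called 2 lower, Id1 and Id3, and 0 higher. Id1, an inhibitor of bHLH factors and a classic target of BMP and Smad signals, stood apart below control, at 208, 257 and 205 CPM in the control libraries and 74.6, 110.3 and 108 CPM in the H2O2/SB431542 libraries and 173, 121 and 118 CPM in H2O2/saline (log2 fold change -1.20 ± 0.22 SE, edgeR adjusted p = 0.194). Id3 lay below control in every library as well, at 104, 168 and 125 against 74.1, 59.2 and 74.8 CPM, with a fold under 2. Pmepa1, a feedback inhibitor induced by TGF-β, read 76.7, 111 and 73.6 CPM in the control libraries and 137, 147 and 171 CPM in the H2O2/SB431542 libraries (log2 fold change 0.80 ± 0.33 SE, edgeR adjusted p = 0.598). Smad7, the inhibitory Smad, was at 10.3, 24.0 and 12.4 against 11.6, 9.78 and 11.4 CPM.

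Of the ligands, Tgfb1 read 82.9, 71.5 and 37.5 CPM in the control libraries and 119, 77.6 and 77.3 CPM in the H2O2/SB431542 libraries (log2 fold change 0.51 ± 0.29 SE, edgeR adjusted p = 0.753). Tgfb2 read 7.32, 24.9 and 10.9 CPM in the control libraries and 11.4, 9.80 and 15.3 CPM in the H2O2/SB431542 libraries (log2 fold change -0.24 ± 0.41 SE, edgeR adjusted p = 0.984). The groups overlapped in both. Ltbp2, a microfibril protein of the latent TGF-β binding family, was the only member of its list of 17 to stand apart, at 5.53, 6.34 and 2.22 CPM in the control libraries and 17.4, 11.7 and 11.4 CPM in the H2O2/SB431542 libraries (log2 fold change 1.52 ± 0.36 SE, edgeR adjusted p = 0.344). The receptors Tgfbr1 and Tgfbr2 had log2 fold changes of -0.27 and 0.39.

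Fibrillar collagens and their cross-linkers had a median of 0.63 (leave-one-out range 0.40 to 0.81), 14 of 16 were positive, and 0 stood apart by 2-fold. No member was called by edgeR or DESeq2, and 5 had an unadjusted p under 0.05 above control. Over the control mean the list stood at 0.41, 0.58 and 0.69 in H2O2/SB431542 1 to 3. The controls were at -0.41, 0.56 and -0.11, so H2O2/SB431542 1 lay within them. Col3a1, a collagen of early scar, read 542, 1092 and 637 CPM in the control libraries and 1164, 1300.1 and 1589.7 CPM in the H2O2/SB431542 libraries (log2 fold change 0.84 ± 0.29 SE, edgeR adjusted p = 0.479). Col1a1 was at 1175, 1439 and 589 against 2689.6, 1232 and 1619.7 CPM, with overlap. Activated fibroblast genes had a median of 0.56, with 14 of 17 positive, 4 apart above control and 0 below. No member of that list was called by edgeR or DESeq2, and 5 had an unadjusted p under 0.05 above control and 1 below. The activated fibroblast list stood at 0.52, 0.50 and 0.77 over the control mean in H2O2/SB431542 1 to 3. Controls were at -0.31, 0.43 and -0.19. Timp1, an inhibitor of metalloproteinases and 1 of the 4, read 4.15, 5.28 and 7.24 against 8.57, 33.0 and 16.7 CPM. Postn, a matrix protein of activated fibroblasts, read 27.7, 81.3 and 63.9 against 42.8, 54.5 and 64.6 CPM, with overlap. Mmp14, a membrane metalloproteinase, read 63.3, 78.5 and 52.3 against 109, 117 and 129.9 CPM. Mmp10, a stromelysin, had no count in control and 0.435, 1.35 and 0.229 CPM in H2O2/SB431542. Mmp7, an epithelial metalloproteinase, had no count in control and 0, 5.60 and 6.17 CPM in H2O2/SB431542. With no count in control, Mmp10 and Mmp7 passed the count filter only through the injured groups.

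Padi4, an enzyme that turns arginine into citrulline in histones and other proteins, was among the genes with the lowest p, at 34.9, 25.4 and 20.2 CPM in the control libraries and 96.6, 95.7 and 99.6 CPM in the H2O2/SB431542 libraries (log2 fold change 1.86 ± 0.27 SE, edgeR adjusted p = 0.0647). H2O2/saline read 69.3, 143 and 119 CPM. Orai2, a pore subunit of the store-operated calcium channel, was at 21.1, 24.5 and 19.3 CPM in the control libraries and 40.4, 43.1 and 51.6 CPM in the H2O2/SB431542 libraries (log2 fold change 1.06 ± 0.19 SE, edgeR adjusted p = 0.194). Each of the pair was above control in every treated library. Padi4 is best known from neutrophils and counts among the 9 neutrophil markers tested, of which DESeq2 called 1, Padi4 itself. The markers S100a8, S100a9 and Ly6g summed to at most 0.317 CPM in control and 3.40 CPM in H2O2/SB431542. Which cells held the Padi4 RNA was not tested.

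Of 24 sensory and receptor genes, 3 stood apart above control and 1 below. Their median was 0.25, and 0.027 without control 3. Bdkrb1, the bradykinin receptor induced by injury, read 0.0529, 0 and 0.0516 CPM in the control libraries and 0.145, 1.5 and 1.39 CPM in the H2O2/SB431542 libraries and 0.231, 9.26 and 7.01 CPM in H2O2/saline (log2 fold change 4.74 ± 1.38 SE, edgeR adjusted p = 0.372). Tacr1, the substance P receptor, was high in 2 of 3 treated libraries, at 0.635, 0.766 and 0.773 against 0.604, 3.30 and 3.43 CPM. Piezo2, a channel of mechanical sensation, was at 2.49, 1.66 and 2.17 against 4.44, 5.38 and 3.57 CPM. Trpa1, the irritant channel of sensory nerves, had no count in any control or H2O2/SB431542 library and 0, 1.501 and 1.51 CPM in H2O2/saline, and it was below the filter. Adrb3, the receptor through which β-adrenergic drugs relax the detrusor, stood apart below control at 6.00, 13.7 and 5.41 against 4.56, 3.08 and 4.48 CPM (log2 fold change -1.05 ± 0.42 SE, edgeR adjusted p = 0.580).

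Gfra3, the artemin receptor subunit of sensory neurons, had the lowest p of the lower genes after Galnt2, at 16.3, 18.4 and 22.2 CPM in the control libraries and 6.01, 3.00 and 5.35 CPM in the H2O2/SB431542 libraries and 9.91, 7.84 and 5.94 CPM in H2O2/saline (log2 fold change -1.99 ± 0.31 SE, edgeR adjusted p = 0.0878). Ttr, the carrier of thyroxine and retinol, read 105, 30.3 and 74.3 CPM in the control libraries and 3.89, 4.801 and 3.61 CPM in the H2O2/SB431542 libraries and 22.1, 1.66 and 1.98 CPM in H2O2/saline (log2 fold change -4.09 ± 0.88 SE, edgeR adjusted p = 0.290). Ly6k was at 132, 111 and 124 CPM in the control libraries and 23.8, 35.0 and 62.0 CPM in the H2O2/SB431542 libraries (log2 fold change -1.60 ± 0.32 SE, edgeR adjusted p = 0.288). It shares 47.6% of its exon bases with Gm17189 on the opposite strand, which lay below control in the same way, at 18.0, 13.7 and 19.1 against 4.20, 5.35 and 7.66 CPM. Pcp4, a regulator of calmodulin, read 41.7, 44.3 and 69.5 against 21.9, 21.7 and 20.3 CPM. Cytl1 was at 10.2, 9.14 and 11.3 against 5.07, 2.501 and 1.14 CPM. Bex4 read 1.90, 2.91 and 4.02 against 0.869, 0.700 and 0.594 CPM. Tnnt3, troponin T of fast skeletal muscle, read 12.7, 9.27 and 12.7 against 4.01, 4.15 and 4.53 CPM. The pseudogene Rpl30-ps10, which can share reads with its parent gene, read 14.9, 23.1 and 26.9 against 7.15, 12.9 and 8.92 CPM. These genes lay below control in all treated libraries and did not pass the edgeR test, with adjusted p from 0.0878 to 0.359.

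Smooth muscle contractile genes had a positive fold change in 0 of 18 members, and the median was -0.54 (leave-one-out range -0.80 to -0.32), with -0.54 in H2O2/saline. No gene stood apart by 2-fold or passed the edgeR or DESeq2 test, and 6 had an unadjusted p under 0.05. In the edgeR fit of replicates 2 and 3 of each group only, chosen after seeing the data, 11 were called lower. Acta2, smooth muscle actin, read 6453, 12550.3 and 12442 CPM in the control libraries and 6573, 6507 and 5951 CPM in the H2O2/SB431542 libraries (log2 fold change -0.72 ± 0.26 SE, edgeR adjusted p = 0.493). Myh11, the smooth muscle myosin heavy chain, read 1832, 5336 and 4319.7 against 2146, 2345 and 2749.8 CPM. Control 1 was at the level of the treated libraries in both, and control 2 and 3 were higher. Tagln read 3899, 8596 and 7490.5 against 4017, 4245 and 4697 CPM, with the same layout, and it shares bases with an antisense gene. Red cell and fat genes were high in control 1, where these genes were low, and their part was not tested.

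Among antioxidant genes the median over 24 genes was -0.049, 2 had an unadjusted p under 0.05 above control and 4 below. Gpx2, an epithelial glutathione peroxidase, stood apart above control at 42.9, 28.6 and 40.3 CPM in the control libraries and 68.5, 202 and 87.0 CPM in the H2O2/SB431542 libraries (log2 fold change 1.68 ± 0.58 SE, edgeR adjusted p = 0.463). Sod3, the extracellular superoxide dismutase, lay below control without overlap at 81.0, 74.2 and 71.3 against 50.4, 43.1 and 52.2 CPM, with 66.0, 81.9 and 61.0 CPM in H2O2/saline. Gstm1, a glutathione transferase and one of the genes with the largest difference in mean CPM below control, read 19626, 10874 and 15484 against 15004, 8848 and 8835 CPM, with overlap. Nos2, the inducible nitric oxide synthase, stood apart below control at 5.02, 5.34 and 3.66 against 2.37, 2.25 and 1.87 CPM. Hmox1, the heme oxygenase induced by oxidants, read 33.2, 25.6 and 30.01 against 32.5, 69.8 and 53.2 CPM and overlapped control in library 1. Vegfa, the endothelial growth factor, was above control in each library at 11.6, 11.2 and 10.4 against 20.6, 22.3 and 20.9 CPM, and the median of 21 endothelial genes was 0.079.

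Cytosolic ribosomal protein genes, a list added after the data were seen, had a negative fold change in nearly every member. Of 81 tested, 1 had a positive fold change and 37 an unadjusted p under 0.05 below control, with a median of -0.50 (leave-one-out range -0.59 to -0.37). None stood apart by 2-fold, edgeR called none and DESeq2 called 6 lower. The 3 libraries stood at -0.47, -0.30 and -0.56 against controls at 0.074, -0.16 and 0.069. H2O2/saline libraries stood at 0.056, -0.21 and -0.22, of which the second and the third lay below every control. Their median log2 fold change against control was -0.13. Rps14 read 7511, 5196 and 4979.6 CPM in the control libraries and 4155, 4205 and 3388 CPM in the H2O2/SB431542 libraries (log2 fold change -0.59 ± 0.29 SE, edgeR adjusted p = 0.683). Some ribosomal protein genes have a longest transcript under 1000 nt, such as Rps27 (672 nt) and Rpl26 (657 nt). Others do not, such as Rps25 (1280 nt) and Rpl30 (2412 nt). Genes with short transcripts as a whole shared the direction. The 1062 genes under 1000 nt with a mean of at least 1 CPM, some of them ribosomal, had a median of -0.24. It was -0.085 from 1000 to 2000 nt, 0.018 from 2000 to 4000 nt and 0.035 above. Of the short genes 4.05% stood apart below control, against 0.438% of the longest. Transcript length moved with the lower genes, and its part in them was not tested. Among genes of at least 2000 nt, 431 stood apart above control and 149 below.

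**Figure D5:**
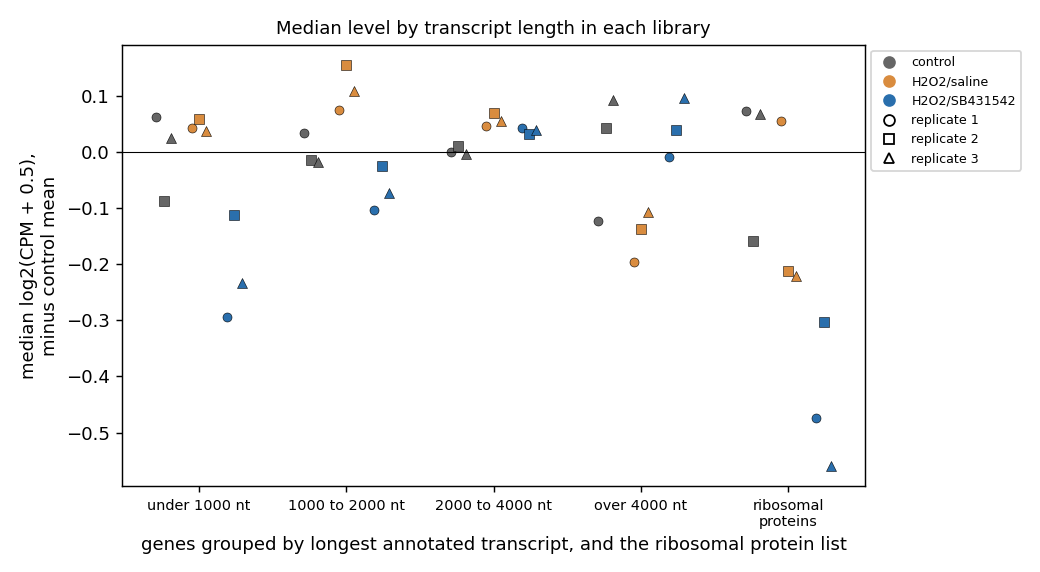
The y axis is the median of log2(CPM + 0.5) minus the control mean over genes grouped by longest annotated transcript, and over the ribosomal protein list, with a symbol for each library coloured by group. Under 1000 nt the H2O2/SB431542 libraries lie at -0.29, -0.11 and -0.23, below all other libraries, and the ribosomal protein genes at -0.47, -0.30 and -0.56.

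Genes that stood apart from both other groups were few, 39 higher (0.202% of those tested) and 28 lower (0.145%). Slc7a3, a transporter of cationic amino acids, read 0.106, 0 and 0 CPM in control, 0.0578, 0.259 and 0 CPM in H2O2/saline and 0.386, 0.800 and 0.823 CPM in H2O2/SB431542. Ddias, a suppressor of apoptosis after DNA damage, read 0.264, 0.343 and 0.155, 0.116, 0.466 and 0.347 and 0.676, 1.5 and 0.915 CPM in the same order. Ifi213, of the interferon-induced p200 family, was at 0.132, 0 and 0.0516, 0.231, 0.259 and 0 and 0.580, 0.550 and 0.640 CPM, and Rasgrp1, a Ras activator of lymphocytes, at 0.423, 0.158 and 0.103, 0.0867, 0.388 and 0.272 and 0.483, 1.40 and 0.937 CPM. All of these were at or below 2 CPM in every library. None differed between the inhibitor and saline groups past the edgeR threshold, with adjusted p of 0.571 for Rasgrp1 and 0.613 for Slc7a3. The 5 lower genes with the lowest p were unnamed gene models and an antisense RNA, and are not described.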

How the data were processed

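RNA of total bladder was sequenced as poly-A libraries (paired reads of 150 bases, aligned by the authors to GRCm39 with Strand NGS). The sources used here do not state the counting rule, the use of strand or the annotation. The authors deposited 1 table of 53342 genes with raw expected counts, of which 32.0% of the values above 0 are whole, and log2 values centred on the mean of each gene, used here only as an alternative. A total of 19393 genes had no count and 101 symbols occurred more than once. Mitochondrially encoded genes were not analysed here.

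Expected counts were rounded and fitted with edgeR 4.0.16 in R 4.3.3 (TMM scaling, filterByExpr, quasi-likelihood test, all 9 libraries in 1 fit, Benjamini-Hochberg adjustment over 19314 genes, threshold 0.05). DESeq2 1.42.0 and limma 3.58.1 were alternatives. Depth was 37329025 to 41055151 counts per library. With 3 against 3 libraries the smallest exact permutation p is 0.1, so single genes have no such test. The limits at 3 counts cover counting error only, and the SE of a fold change comes from the edgeR fit over the 9 libraries.

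Genes named are those past the threshold, the 10 lowest p in each direction among genes that stood apart with a mean of at least 1 CPM and no Gm or Rik name, up to 4 members of each list by size of fold change, the genes the study measured by RT-qPCR or named for the barrier, the 5 largest differences in mean CPM and the 5 lowest p apart from both other groups in each direction, overlapping genes, and cell type markers. Other list members were named after their values were seen. Some members counted in the lists are not reported here by name. Members and lists were chosen with earlier results of these data known, and the ribosomal protein list, the fits without replicate 1, the transcript length limits and the sums with overlapping genes were added after the data were seen. Overlap of gene models was read from a GENCODE annotation of GRCm38, used for names and for which models overlap, as the genome build of the files was not at hand. Promoters are RefSeq, GRCm38.p6.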

Additional observations from a re-analysis of the deposited data

Results flagged for a closer look

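Col19a1, a collagen of basement membrane zones, stood on opposite sides of control in the injured groups. It read 0.264, 0.185 and 0.412 CPM in control, 0.173, 0.155 and 0.0743 CPM in H2O2/saline and 0.725, 0.700 and 1.99 CPM in H2O2/SB431542. The log2 fold change against control was 1.97 in H2O2/SB431542 and -1.09 in H2O2/saline, with every H2O2/SB431542 library above control and every H2O2/saline library below. Both use the same controls, and the direct difference between the injured groups, 3.06 on the log2 scale, had an edgeR adjusted p of 0.528. All levels were below 2 CPM.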

How the results depend on the processing

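The number of genes past the threshold, 3 in the edgeR fit with TMM, depended on the setting. It was 183 with DESeq2, 5 with upper-quartile scaling, 439 with no filter on low counts, 6 with at least 10 counts in every library, 23 with only the 6 libraries compared, 1 in a test against a 2-fold change, 449 with replicates 2 and 3 only, and 0 when each called gene was summed with its overlapping gene. Leaving out 1 library gave 0 (without control 3) to 83 (without H2O2/saline 1). The cause of these differences was not tested. With the replicate number as a block 35 genes passed. The correlations of deviations of same-numbered control and H2O2/SB431542 libraries were 0.393, -0.0063 and 0.137, the first being the highest of all pairs. Library 2 of H2O2/SB431542 correlated more with control 3 (0.242) than with control 2. Deviations from a mean of 3 libraries depend on each other, so these correlations cannot decide whether the numbers pair the samples.

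Of the 3 called genes, Galnt2 turned to 0.22 and Aarsd1 to -0.26 on the log2 scale in the summed counts. Across 20 other settings Atg9b passed in 19, Aarsd1 in 15 and Galnt2 in 12. Oas1a and Irf7 passed in 9 of them and Padi4 in 7, all above control throughout.

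Genes that stood apart numbered 944 (627 above and 317 below). With no filter there were 1444 (534 below), with at least 10 counts 412 (278 above and 134 below), with replicates 2 and 3 only 2458 (1387 and 1071), with a fold limit of 1.5 1684 (998 and 686) and, for transcripts of at least 2000 nt, 580 (149 below). Leaving out 1 compared library gave 1178 to 1787 in all.

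Of 874 list medians under other settings 760 moved by less than the spread between replicates and 114 by more. The medians of interferon-induced and basal urothelial genes ran from 0.82 to 1.38 and from 1.38 to 1.76 when 1 library was left out. That of direct TGF-β response genes ran from -0.17 to 0.36 and that of fat cell markers from -1.49 to 0.82. The limit on transcript length, the sums with overlapping genes and the fits of replicates 2 and 3 only were chosen after seeing the data.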
